A study of Mus musculus with 6 samples.

Results

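The genes described here carry signals from receptors of the insulin and growth factor type into the cell, through phosphoinositide 3-kinase (PI3K), the kinase AKT and mTOR on one side and through RAS and the ERK kinases on the other. They were taken from a written list of 35 genes, read as 4 arms: adaptors, PI3K to AKT, mTOR, and RAS to ERK. A probe was paired with 24 of the 35, among 12323 named genes measured in all. Where a gene had more than 1 probe, the probe of highest mean crypt signal was used. The 11 genes without a paired probe were Irs2 and Grb2 among the adaptors, Pik3cd, Pik3r1, Akt2 and Gsk3a in the PI3K to AKT arm, Tsc1, Rps6kb1 and Rps6kb2 in the mTOR arm, and Sos1 and Sos2 in the RAS to ERK arm, and they were not analysed here. That left 2 adaptors, 9 genes from PI3K to AKT, 5 of the mTOR arm and 8 from RAS to ERK.

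The RNA was that of crypts, the pits of the intestinal lining in which its cells divide, microdissected by laser from mid small intestine. The 6 donors were adult C57BL/6 mice of 120 days, with 5000 to 13000 crypts taken from each. Females heterozygous for an H19 deletion were crossed with wild-type males. The 3 LOI(+) mice carried on the maternal chromosome a deletion of 3 kb of H19 and 10 kb of upstream sequence with its differentially methylated region, which per the series' design activates the maternal Igf2 allele, called loss of imprinting (LOI). The 3 LOI(-) mice were wild type. The labels give the sex of 2 mice per group, all male. The deletion is in the germ line, so it is not limited to crypt cells, and it removes H19 itself as well as the control region. One 2-colour array was run per mouse, with crypt RNA in Cy3 and Universal Mouse Reference RNA in Cy5, which pools 11 cell lines. H19 was not analysed here, so the deleted gene did not check the labels.

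Insulin-like growth factors act through receptor tyrosine kinases whose adaptors, the IRS and SHC proteins, recruit PI3K and the RAS exchange factors. PI3K makes a membrane lipid that brings PDK1 and AKT together. AKT then holds back GSK3 and the FOXO transcription factors and, by inhibiting the TSC complex, frees RHEB to activate mTOR, which promotes translation through S6 kinases and the 4E-binding proteins. RAS activates RAF kinases, these activate MEK, and MEK activates ERK, whose output includes feedback inhibitors such as the Sprouty and DUSP proteins. In the crypt, epidermal growth factor signals through RAS and ERK drive division of stem and progenitor cells, and mTOR acts in Paneth cells and progenitors in response to feeding. Most of this traffic runs through phosphorylation, which an RNA measurement does not read.

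The median Cy3 signal of a feature was 552 to 603 on the 6 arrays, over a local background of 387 to 391, and the log2 ratios of any 2 arrays correlated across features with r from 0.932 to 0.975. The mean r with the rest was lowest for LOI(+) mouse 2, at 0.948. Of 22 measured markers of crypt epithelium, 16 lay at least 2-fold above the reference in LOI(-) crypts, among them Vil1 (5.85), Epcam (3.20) and the stem cell marker Lgr5 (1.29). Axin2 (0.16), Ephb3 (0.62) and Sox9 (0.50), also on that list, did not. Of 12 villus enterocyte markers 7 lay at least 2-fold above the reference too, among them Fabp1 (5.91) and Slc5a1 (4.32). These counts therefore do not tell crypt from villus epithelium. Of 11 fibroblast markers 8 lay at least 2-fold below the reference. Of 25 leukocyte markers 8 lay at least 2-fold below it and 2 at least 2-fold above it. The reference itself holds fibroblast and lymphocyte lines, so these ratios do not show that such cells were absent. Each array lay on its own slide, and image extraction ran through the LOI(-) arrays before the LOI(+) arrays, so group and order of extraction cannot be told apart.

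Signals of all 24 genes exceeded, in both channels on all 6 arrays, the level under which 95% of negative control spots lay, and none was saturated. Several were dim in crypts: Irs1 had a Cy3 signal of 460 to 491, Gsk3b 503 to 535, Tsc2 495 to 532, Mtor 513 to 560 and Pik3cb 525 to 600. That control level was 439 to 449. Akt1, at 550 to 616, and Shc1, at 569 to 641, were little brighter. At the other end, the Pik3r3 probe read 5895 to 10540. Values below are log2 ratios of crypt over reference after normalization, where 0 means equal to the reference. They are not levels that can be ranked between genes.

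Against the reference, 3 of the 24 genes were called lower in LOI(-) crypts and 0 were called higher, where a call needed an adjusted p under 0.05 and a 2-fold difference. Over all 37948 genes and unnamed probes tested, 5.54% were called lower and 4.22% higher. The 3 were Eif4ebp1 and Rheb of the mTOR arm and Map2k1 of the RAS to ERK arm. The other 21 lay within 2-fold of the reference, as did 34246 of the 37948 features. A mean within 0.5 of 0 on the log2 scale was found for 18 of the 24. The processing pulls the ratios of dim probes towards 0. Mean ratios in LOI(-) were above 0 for 10 genes and below it for 14. That split depended on the dye normalization: without loess it was 6 and 18, with Pik3ca (-0.18), Pik3r2 (-0.31), Pik3r3 (-0.087), Foxo1 (-0.35) and Hras (-0.30) below 0 and Irs1 (0.22) above it. With a single reference pool and no swap of dyes, a probe's dye effect and a level cannot be told apart. In such bulk RNA, fewer cells of a type and less RNA per cell cannot be told apart either.

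**Figure D1:**
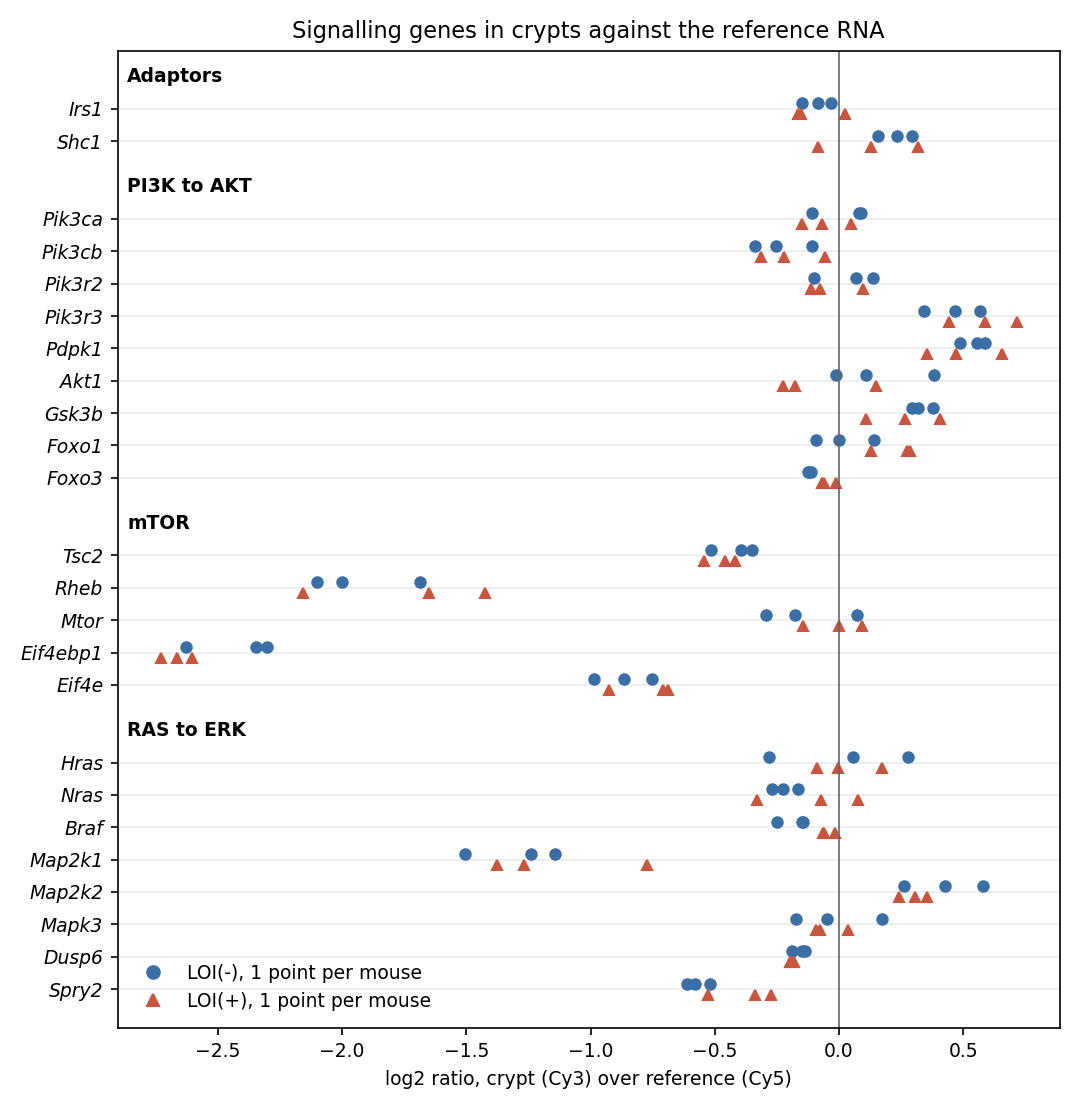
Log2 ratio of crypt (Cy3) over reference (Cy5) RNA for the 24 measured genes, by arm, with 1 point per mouse (circles LOI(-), triangles LOI(+), 3 mice each). Eif4ebp1, Rheb and Map2k1 sit far to the left of 0, and the groups overlap for every gene except Foxo3 and Braf.

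Between the groups, 0 of the 24 genes passed the test in limma after Benjamini-Hochberg adjustment, and 0% of all features did. The smallest adjusted p was 0.803 among the 24 and 0.8005 among all features. At an unadjusted p under 0.05 there were 3 of the 24, Foxo1, Eif4ebp1 and Spry2, against 6.15% of all features and 7.59% of all named genes. The 3 mice of a group lay wholly above or below those of the other for 2 of the 24, Foxo3 and Braf, against 11.4% of all features. That count was 5 without background correction, 5 on the 4 arrays labelled male, 1 in the Cy3 channel alone and 2 to 9 with 1 array left out, 9 being without LOI(+) mouse 1. The mean was higher in LOI(+) for 12 genes and lower for 12, with a median difference, LOI(+) minus LOI(-), of 4.16e-06, against 0.0029 over all features. The median absolute difference was 0.099 for the 24, 0.071 for all named genes and 0.064 for all features, which include unnamed probes.

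The 95% intervals give the differences that the probes used leave room for. For 7 of the 24 genes the whole interval lay within a 1.2-fold difference, for 23 within 1.5-fold, and for all 24 within 2-fold. Over all features tested those shares were 53.8%, 93.2% and 99.0%. The gene outside 1.5-fold was Rheb, whose interval reached 0.65. Of the 7 genes within 1.2-fold, Irs1, Tsc2 and Pik3cb had dim probes, whose ratios the processing pulls towards 0. For Dusp6, another of the 7, a second probe had an interval from -0.87 to 0.14.

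**Figure D2:**
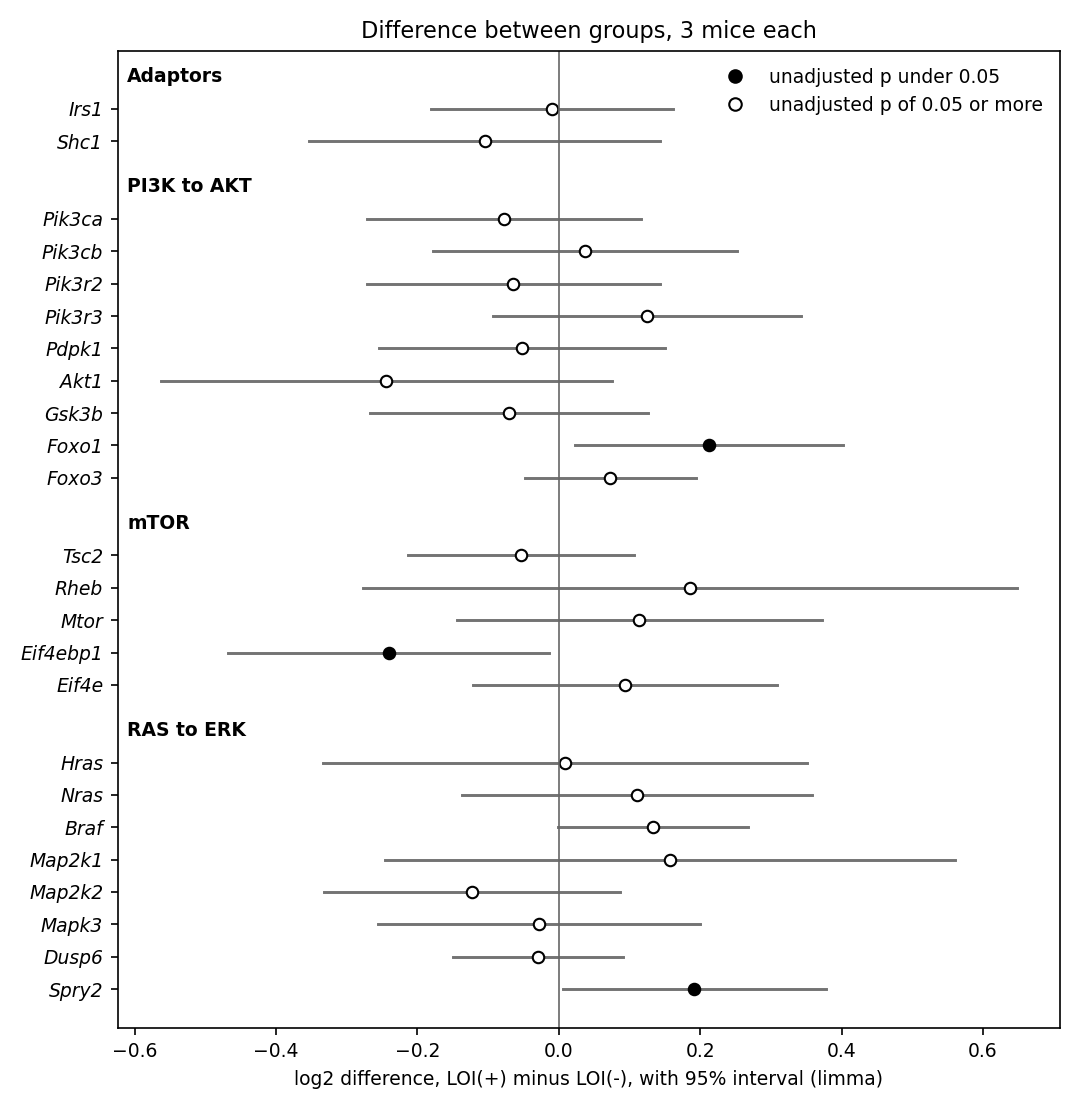
Difference in log2 ratio, LOI(+) minus LOI(-), for the 24 genes by arm, as a point with its 95% interval from limma (3 mice per group). Filled points mark Foxo1, Eif4ebp1 and Spry2, at an unadjusted p under 0.05, and none of the 24 passed after adjustment over all features.

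The adaptors dock on activated receptors and pass the signal on. Shc1, which links receptors to the RAS exchange factors, had log2 ratios of 0.16, 0.23 and 0.29 in LOI(-) mice 1 to 3 and of 0.13, -0.083 and 0.32 in LOI(+) mice 1 to 3. The LOI(+) mice spanned the LOI(-) mice on both sides, with mouse 2 lowest of all 6. The difference was -0.11 ± 0.10 (SE), with a 95% interval from -0.35 to 0.14 and an adjusted p of 0.882. For Irs1, the docking protein that couples insulin and IGF1 receptors to PI3K, the ratios were -0.032, -0.083 and -0.15 in LOI(-) and 0.025, -0.17 and -0.15 in LOI(+). Those groups overlapped almost fully, with a difference of -0.0090 ± 0.072 and an interval from -0.18 to 0.16.

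The PI3K to AKT arm held the catalytic subunits Pik3ca and Pik3cb, the regulatory subunits Pik3r2 and Pik3r3, and the kinases and transcription factors below them. Pik3cb had a mean ratio of -0.23 ± 0.12 (SD, n = 3) in LOI(-) crypts, with single values of -0.34, -0.25 and -0.11 in LOI(-) and -0.31, -0.058 and -0.22 in LOI(+). The difference was 0.037 ± 0.091. Pik3ca differed by -0.077 ± 0.082 and Pik3r2 by -0.065 ± 0.088. Neither passed the test, with adjusted p values of 0.888 and 0.910.

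Pdpk1, which encodes PDK1, the kinase that activates AKT, had a mean ratio of 0.55 ± 0.051 (SD, n = 3) in LOI(-) crypts. Its 6 values were 0.56, 0.49 and 0.59 in LOI(-) and 0.47, 0.35 and 0.66 in LOI(+). All 6 mice lay above the reference, by less than 2-fold, and the difference between groups was -0.052 ± 0.086. Akt1, a central kinase of the pathway, showed a wide spread in both groups, with -0.013, 0.11 and 0.38 in LOI(-) and -0.23, -0.18 and 0.15 in LOI(+). The groups overlapped, with a difference of -0.24 ± 0.14, an interval from -0.56 to 0.075 and an adjusted p of 0.821. The difference was -0.13 without LOI(-) mouse 3 and -0.36, with an unadjusted p of 0.0265, without LOI(+) mouse 3. Gsk3b, a kinase that AKT inhibits, differed by -0.070 ± 0.083.

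The FOXO factors at the end of this arm drive genes of metabolism and growth arrest, and AKT keeps them out of the nucleus. Foxo1 had ratios of 0.14, -0.091 and 0.0018 in LOI(-) and of 0.13, 0.28 and 0.28 in LOI(+). LOI(+) mice 2 and 3 lay above all LOI(-) mice, while LOI(+) mouse 1 lay just under LOI(-) mouse 1. The difference was 0.21 ± 0.080, a fold of 1.16, with a 95% interval from 0.023 to 0.40, an unadjusted p of 0.033 and an adjusted p of 0.803. With 1 array left out, the unadjusted p stayed under 0.05 without LOI(-) mouse 1 or LOI(+) mouse 1 and was 0.0793 to 0.106 without any other. The Cy3 signals were 1427, 1015 and 1114 in LOI(-) and 1280, 1427 and 1472 in LOI(+).

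Foxo3 had nearly the same ratio in the LOI(-) mice, -0.12, -0.12 and -0.11. In LOI(+) it had -0.067, -0.013 and -0.061, all above the LOI(-) values. The difference was small, 0.073 ± 0.051, a fold of 1.05, and its adjusted p was 0.840. In the dye channels taken singly, Foxo3 was higher in LOI(+) by 0.24 ± 0.12 in Cy3 and by 0.21 ± 0.12 in Cy5, which holds the same reference RNA on every array.

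Within the mTOR arm, Tsc2 encodes the subunit of the TSC complex that switches RHEB off, RHEB is the small GTPase that activates mTOR, and 4E-BP1, encoded by Eif4ebp1, holds back the cap-binding factor eIF4E until mTOR phosphorylates it. Eif4ebp1 had the lowest ratios of all 24 genes, -2.63, -2.30 and -2.35 in LOI(-) and -2.73, -2.66 and -2.60 in LOI(+). Its mean in LOI(-), -2.43 ± 0.18 (SD, n = 3), was 5.37-fold under the reference with an adjusted p of 2.61e-07. In intensities, crypt RNA gave 639 to 690 and reference RNA 3468 to 4639. Between groups the difference was -0.24 ± 0.096, a fold of 0.847, with an interval from -0.47 to -0.013, an unadjusted p of 0.0408 and an adjusted p of 0.803. LOI(-) mouse 1, at -2.63, lay among the LOI(+) values. Without that mouse the unadjusted p was 0.00267, and without any other array it was 0.0533 to 0.129.

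Rheb lay 3.81-fold under the reference in LOI(-) crypts, with an adjusted p of 2.78e-05. The ratios were -2.00, -2.10 and -1.69 in LOI(-) and -2.16, -1.43 and -1.65 in LOI(+). The LOI(+) mice held both the lowest and the highest value, and the difference was 0.19 ± 0.20, with an interval from -0.28 to 0.65. It was 0.39, with an unadjusted p of 0.0303, without LOI(+) mouse 1 and 0.026 without LOI(+) mouse 2. Eif4e was also below the reference on every array, with -0.98, -0.87 and -0.75 in LOI(-) mice against -0.92, -0.71 and -0.69 in LOI(+) mice. Its mean in LOI(-), -0.87 ± 0.12, had an adjusted p of 3.34e-05 against the reference and fell short of the 2-fold needed for a call. Between groups it differed by 0.094 ± 0.091.

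Mtor, the kinase at the centre of this arm, stood close to the reference, with -0.29, -0.18 and 0.075 in LOI(-) and -0.0015, 0.092 and -0.15 in LOI(+). The groups overlapped, and the difference was 0.11 ± 0.11, with an interval from -0.14 to 0.37, and was 0.033 without LOI(-) mouse 1 and 0.22 without LOI(-) mouse 3. For Tsc2 the mean ratio was -0.42 ± 0.085 (SD, n = 3) in LOI(-), and the groups differed by -0.054 ± 0.068. Of this arm only Eif4ebp1 and Rheb were called lower than the reference, with Eif4e next, and 0 of its 5 genes passed the test between groups.

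In the RAS to ERK arm, Map2k1 and Map2k2 encode the kinases MEK1 and MEK2, which both phosphorylate ERK. The probes used for them lay on opposite sides of the reference. A second Map2k2 probe did not lie above it throughout, with means of 0.0058 in LOI(-) and -0.18 in LOI(+). Without loess the LOI(-) mean of the Map2k2 probe used was 0.067. Map2k1 had ratios of -1.14, -1.51 and -1.24 in LOI(-) and -1.38, -0.77 and -1.27 in LOI(+). Its LOI(-) mean, -1.30 ± 0.19 (SD, n = 3), was 2.46-fold under the reference with an adjusted p of 0.000107. On the probe used, Map2k2 had 0.26, 0.43 and 0.58 in LOI(-) and 0.24, 0.31 and 0.35 in LOI(+). These lay above the reference on every array by less than 2-fold. Between groups Map2k1 differed by 0.16 ± 0.17 and Map2k2 by -0.12 ± 0.088, and neither passed. Without LOI(+) mouse 2, the highest of the 6, the Map2k1 difference was -0.027. That of Map2k2 was -0.20, with an unadjusted p of 0.0405, without LOI(-) mouse 1 and -0.044 without LOI(-) mouse 3.

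Braf, the RAF kinase with the highest basal activity towards MEK, had ratios of -0.25, -0.15 and -0.15 in LOI(-) and of -0.061, -0.017 and -0.063 in LOI(+). All LOI(+) mice lay above all LOI(-) mice. The difference was 0.13 ± 0.057, a fold of 1.10, with an unadjusted p of 0.0506 and an adjusted p of 0.810. Of the RAS genes themselves, Hras differed by 0.0090 ± 0.14 and Nras by 0.11 ± 0.10. The Nras difference was 0.22, with an unadjusted p of 0.0261, without LOI(+) mouse 1 and 0.018 without LOI(+) mouse 2. Mapk3, which encodes ERK1, differed by -0.028 ± 0.096.

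Spry2 and Dusp6 encode feedback inhibitors that ERK signalling induces, Sprouty 2 acting upstream at the level of RAS and DUSP6 dephosphorylating ERK. Spry2 had ratios of -0.58, -0.61 and -0.52 in LOI(-) and of -0.53, -0.27 and -0.34 in LOI(+). LOI(+) mice 2 and 3 lay above all LOI(-) mice and LOI(+) mouse 1 fell among them. The difference was 0.19 ± 0.078, a fold of 1.14, with an interval from 0.0063 to 0.38, an unadjusted p of 0.0444 and an adjusted p of 0.803. Without LOI(+) mouse 1 the unadjusted p was 0.00655, and without any other array it was 0.0574 to 0.140. Dusp6 had the tightest values of the 24 genes, from -0.20 to -0.14 over the 6 arrays, and differed by -0.029 ± 0.051.

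The channels behind the Spry2 ratio did not move as the ratio did. Crypt RNA in Cy3 gave 1019, 862 and 944 in LOI(-) and 942, 839 and 901 in LOI(+). Reference RNA in Cy5, the same on every array, gave 2109, 2145 and 2158 in LOI(-) and 1946, 1381 and 1790 in LOI(+). The Cy5 signals of the LOI(+) arrays were all below those of the LOI(-) arrays, and the Cy3 signals overlapped. With each channel normalized by quantiles between arrays, Spry2 differed by -0.22 ± 0.15 in Cy3 and by -0.43 ± 0.20 in Cy5, so its ratio was higher in LOI(+) while its crypt signal was not.

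Eif4ebp1 and Foxo1 were read the same way. Eif4ebp1 differed by -0.092 ± 0.16 in Cy3 and by 0.13 ± 0.097 in Cy5, and LOI(+) mouse 3 had the highest reference signal, 4639. For Foxo1 the crypt channel differed by 0.23 ± 0.12 and the reference channel by 0.054 ± 0.088, so nearly all of its difference stood in Cy3. Of the 24 genes, 21 had the same sign in Cy3 alone as in the ratio, against 76.8% of all features, and 9 had a larger difference in Cy5 than in Cy3, against 40.9%. In the Cy5 channel 0 of the 24 had an unadjusted p under 0.05 in limma, against 3.59% of all features, and 0 features passed after adjustment. The reading of single channels was chosen after the data were seen.

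**Figure D3:**
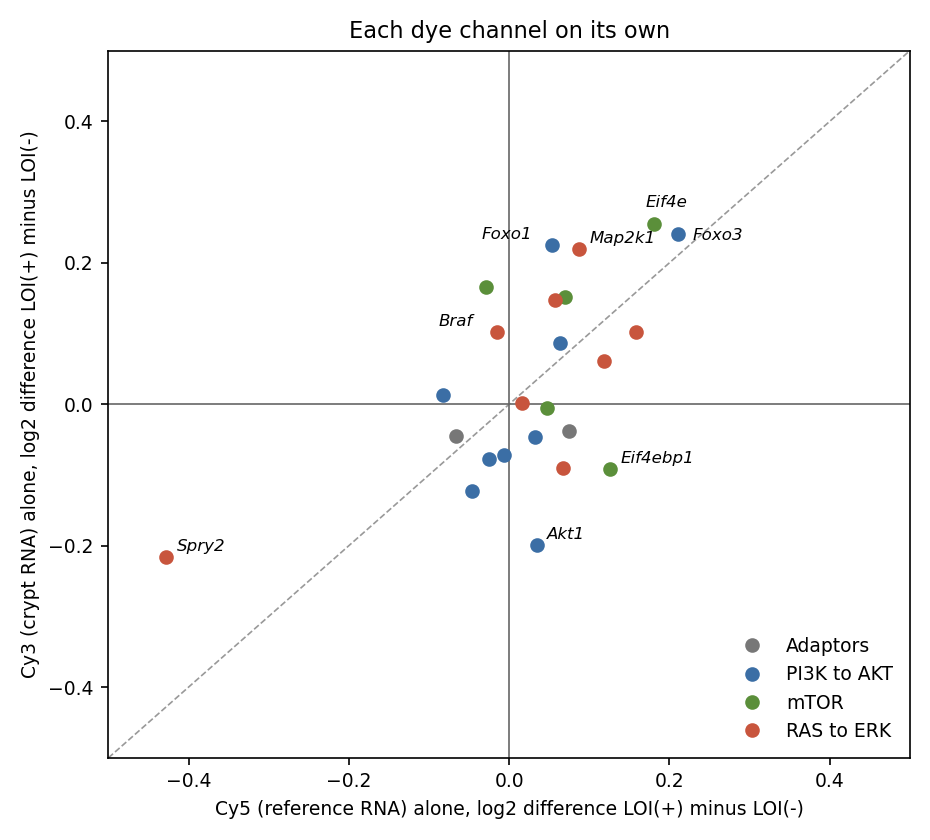
Difference between groups, LOI(+) minus LOI(-), in the crypt channel (Cy3, vertical) against that in the reference channel (Cy5, horizontal), each normalized alone, with 1 point per gene coloured by arm. On the dashed line both channels differ alike; Foxo1 lies near the vertical axis, while Spry2 lies far to the left, at -0.43 in Cy5.

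The spread of the 24 genes over arrays was not even. LOI(+) mouse 2 held the highest or the lowest ratio for 15 of the 24 genes, against 39.5% of all features, and LOI(+) mouse 3 for 3. Of those 15, LOI(+) mouse 2 was highest for 10 and lowest for 5. Map2k1 and Rheb had the widest ranges over the 6 arrays, 0.73 each, and in both LOI(+) mouse 2 was highest. Dusp6 had the narrowest, 0.059, and the median range of the 24 was 0.34.

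More than 1 probe was present for 4 of the 24 genes, and for Dusp6 the probes gave different answers about the level. Of the 3 Pik3r3 probes, 1 was bright and the others were near or at the level of the control spots. The sequences below are the first 30 of the 60 bases of each probe of these genes, shown because the values depend on which probe is read.
Dusp6 probe A_66_P129695: atggcagcccgctgtccaacagccagcctt
Dusp6 probe A_66_P140330: ctgccttacctttgtaaatatttggcttac
Pik3r3 probe A_66_P111029: ttttgccctgtagctgcatcattgtccagg
Pik3r3 probe A_66_P119279: ttctaggatgatctctactgccagttagat
Pik3r3 probe A_66_P139498: gtaaagaaacagtgcaatccagtgctttta

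For Dusp6 the brighter probe, A_66_P129695, gave the values near the reference described above. The other, A_66_P140330, gave -2.29, -1.98 and -1.75 in LOI(-) and -2.19, -2.83 and -2.11 in LOI(+), a mean of -2.01 ± 0.27 (SD, n = 3) in LOI(-), or 4.02-fold under the reference. On that probe the groups differed by -0.37 ± 0.21, with an adjusted p of 0.830. Neither probe showed a called difference between groups, and with the mean of both probes Dusp6 would join the genes called lower than the reference, at -1.08.

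For Pik3r3, a regulatory subunit of PI3K, the probe A_66_P111029 gave 0.57, 0.34 and 0.47 in LOI(-) and 0.59, 0.72 and 0.44 in LOI(+). The probe A_66_P139498, with Cy3 signals of 469 to 519, lay near 0 throughout, from -0.11 to 0.013. The probe A_66_P119279 had Cy3 signals of 438 to 457, at the level of the negative controls, and its ratios give no level. The differences between groups were 0.12 ± 0.092 on the bright probe and -0.011 ± 0.061 on A_66_P139498, neither of them called. The bright probe's position above the reference also depended on the dye normalization, since without loess its LOI(-) mean was -0.087.

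Map2k2 and Nras had a pair of probes each. The second Map2k2 probe gave a mean of 0.0058 ± 0.21 (SD, n = 3) in LOI(-) and -0.18 ± 0.11 in LOI(+). Its difference was -0.18 ± 0.12, against -0.12 ± 0.088 on the probe used. The second Nras probe differed by -0.030 ± 0.068, with the spot of LOI(-) mouse 1 left out as an outlier, against 0.11 ± 0.10 on the probe used. Which transcripts each probe reads was not tested.

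**Figure D4:**
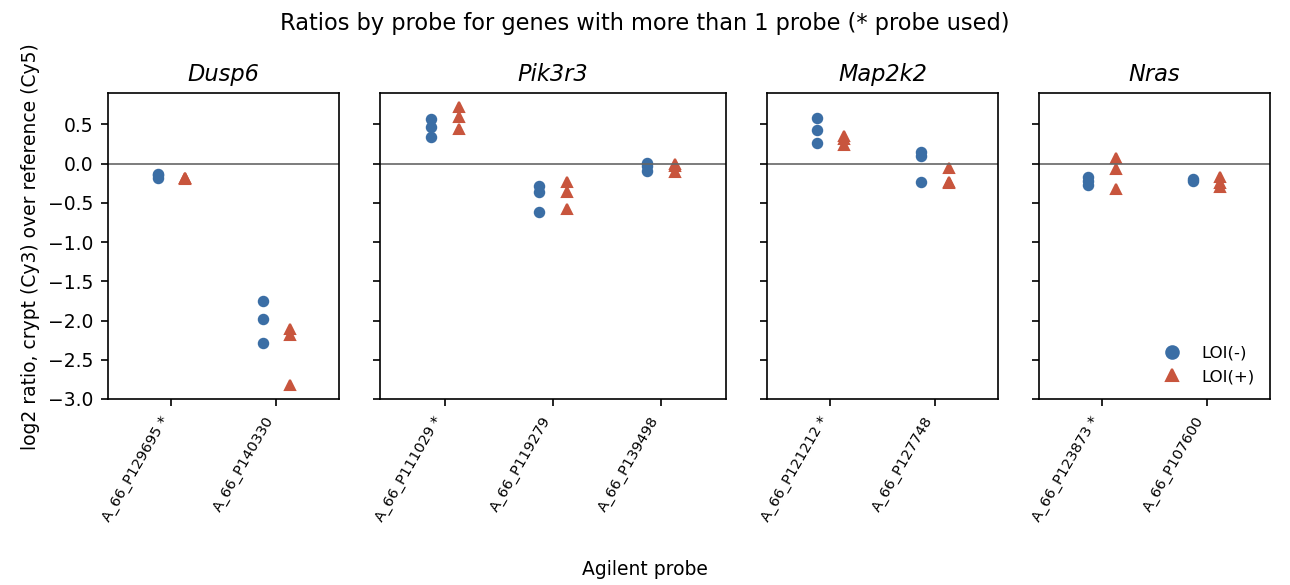
Log2 ratio of crypt over reference for each probe of Dusp6, Pik3r3, Map2k2 and Nras (circles LOI(-), triangles LOI(+), 1 point per mouse, a star marks the probe used). The Dusp6 probes lie about 2 units apart, and of the Pik3r3 probes the bright one lies above 0, while A_66_P119279 is at the signal of the negative controls.

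Promoters are shown for the genes called lower than the reference that had an entry in the promoter table, Rheb and Map2k1, and for Foxo1, the gene of smallest unadjusted p. Each is the 250 bases before the annotated start, from RefSeq on GRCm38.p6, read along the gene's strand. Capitals mark matches, on either strand, to 7 motifs: the E-box CACGTG, the GC box GGGCGG, the CCAAT box CCAAT, the CRE core TGACG, the FOXO site TGTTTAC, the ETS core CCGGAAG and the TATA box TATAAA. Matches of different motifs shared 0 bases in these promoters.
Rheb, chr5:24842362-24842611, minus strand: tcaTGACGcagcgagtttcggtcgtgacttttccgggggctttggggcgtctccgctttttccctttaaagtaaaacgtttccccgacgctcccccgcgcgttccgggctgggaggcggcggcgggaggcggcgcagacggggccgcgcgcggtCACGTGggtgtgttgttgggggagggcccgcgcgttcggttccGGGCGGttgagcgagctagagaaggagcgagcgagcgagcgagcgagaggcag
Map2k1, chr9:64253606-64253855, minus strand: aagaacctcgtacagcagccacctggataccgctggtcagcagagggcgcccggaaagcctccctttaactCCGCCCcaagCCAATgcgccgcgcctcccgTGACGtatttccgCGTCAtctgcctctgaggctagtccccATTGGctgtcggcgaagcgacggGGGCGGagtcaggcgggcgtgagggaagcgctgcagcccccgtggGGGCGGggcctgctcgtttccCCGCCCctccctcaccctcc
Foxo1, chr3:52268087-52268336, plus strand: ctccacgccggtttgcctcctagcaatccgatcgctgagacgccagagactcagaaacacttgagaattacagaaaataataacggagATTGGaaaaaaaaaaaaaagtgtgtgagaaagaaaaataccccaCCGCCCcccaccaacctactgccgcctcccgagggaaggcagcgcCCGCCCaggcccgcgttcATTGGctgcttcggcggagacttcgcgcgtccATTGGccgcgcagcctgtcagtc

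The Rheb promoter held 1 E-box, 1 GC box and 1 CRE core. That of Map2k1 held 4 GC boxes, 2 CCAAT boxes and 2 CRE cores. The Foxo1 promoter held 2 GC boxes and 3 CCAAT boxes, and that of Spry2 held none of the 7 motifs. The letters of the E-box were found in 6.0% of all 32851 promoter entries of that length, the GC box in 32.7%, the CCAAT box in 33.8%, the CRE core in 17.8%, the FOXO site in 3.2%, the ETS core in 6.9% and the TATA box in 12.4%. All 3 sequences were rich in G and C, at 68.0% for Rheb, 68.4% for Map2k1 and 56.0% for Foxo1, against a median of 52.4%. They held 37, 24 and 20 CpG, against a median of 6. These matches describe the letters only.

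The rest of the pathway was read from lists of further genes: 8 receptors, 16 adaptors, 17 genes of the PI3K to AKT arm, 28 of the mTOR arm and 32 of the RAS to ERK arm with a probe, 101 in all. None passed the test between groups in limma. At an unadjusted p under 0.05, 5 were higher and 1 lower in LOI(+). That is 5.94% of the 101, against 6.15% of all features and 7.59% of all named genes. Over all features more were higher than lower at that level too, 1491 against 844. The median difference was -0.046 for the receptors, -0.050 for the adaptors, -0.011 for PI3K to AKT, 0.037 for mTOR and -0.0064 for RAS to ERK, against 0.0029 over all features.

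The further mTOR genes at that level were Stk11, Strada and Lamtor1. Stk11 encodes LKB1, the kinase that activates AMPK, an inhibitor of mTOR signalling, and Strada encodes LKB1's pseudokinase partner. Stk11 had a mean ratio of 0.75 ± 0.14 (SD, n = 3) in LOI(-) and 0.99 ± 0.042 in LOI(+), a difference of 0.24 ± 0.080 with an unadjusted p of 0.0214. Strada had -1.18 ± 0.17 and -0.90 ± 0.13, a difference of 0.28 ± 0.11 with an unadjusted p of 0.0337. For both, all LOI(+) mice lay above all LOI(-) mice, and both adjusted p values were at least 0.8005. Groups did not overlap for these 2 of the 28 further mTOR genes (7.14%). Over the 101 further genes that share was 11.9%, against 11.4% of all features. Lamtor1, of the complex that anchors mTOR at the lysosome, differed by 0.20 ± 0.083.

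Among the further RAS to ERK genes, Rps6ka2, a kinase activated by ERK, differed by 0.20 ± 0.061, Pebp1, an inhibitor of RAF, by 0.21 ± 0.075 and the small GTPase gene Rras by -0.19 ± 0.061, with unadjusted p values of 0.0118, 0.0255 and 0.0157. The smallest p values of the other lists were those of Inppl1, an inositol phosphatase that works against PI3K (-0.22 ± 0.11), and Tcl1, a cofactor of AKT (-0.11 ± 0.056). Among the adaptors they were those of Gab2 (-0.11 ± 0.056) and Irs4 (-0.12 ± 0.062), and among the receptors those of Fgfr2 (-0.080 ± 0.055) and Pdgfrb (-0.15 ± 0.11). None of these 6 had an unadjusted p under 0.05.

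Against the reference, some of these further genes stood much farther out than the 24. The examples that follow were picked by their values. Rps6ka1, which encodes the ERK-activated kinase RSK1, had a mean ratio of 4.00 ± 0.14 (SD, n = 3) in LOI(-), and the adaptor gene Grb7 had 3.08 ± 0.32. Eif4ebp2, which encodes a second 4E-binding protein, had 1.04 ± 0.10, above the reference where Eif4ebp1 was below it. Deptor, an inhibitor of mTOR, had 1.11 ± 0.17. On the low side, Sgk1, a kinase related to AKT, had -3.52 ± 0.70.

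The transcriptional output of ERK and of FOXO was read from a list for each, which overlap the lists above and the 24 genes. Of 17 ERK output genes, 6 were called lower than the reference in LOI(-) crypts and 0 higher, against 5.54% and 4.22% of all features. Among the 6 were the immediate early genes Egr1 (-5.20), Ier3 (-3.47) and Fos (-2.79). The other 11 lay within 2-fold of the reference, among them Etv4 (-0.45), Ccnd1 (0.69) and Epha4 (0.94). Between groups 14 of the 17 (82.4%) had a lower mean in LOI(+), with a median difference of -0.096, against 48.7% of all features. Other lists leaned to either side. Lower in LOI(+) were 18 of 22 crypt epithelium markers, 17 of 25 leukocyte markers and 12 of the 16 further adaptors. Of the further RAS to ERK genes 19 of 32 were lower, of those of PI3K to AKT 9 of 17 and of mTOR 11 of 28. Of the villus enterocyte markers 3 of 12 were lower. At an unadjusted p under 0.05, Epha4, a receptor of the ephrin type, differed by -0.36 ± 0.11 and Spry2 by 0.19 ± 0.078, and 0 passed after adjustment in limma. Of 17 FOXO targets, 13 (76.5%) had a lower mean in LOI(+), with a median of -0.092. The smallest p values there belonged to Fbxo32, a ubiquitin ligase gene (-0.24 ± 0.097, unadjusted p of 0.0456), and Sesn3, an inhibitor of mTOR signalling (0.34 ± 0.19). Foxo1 itself had the opposite sign, 0.21.

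Cell type markers were counted at the same unadjusted level, and none passed after adjustment. At that level stood 6.15% of all features and 7.59% of all named genes, in either direction. Of 22 crypt epithelium markers 4 were lower in LOI(+) and 0 higher, and the mean ratio of the list was 2.77 to 2.93 on the LOI(-) arrays and 2.60 to 2.79 on the LOI(+) arrays. Of 12 villus enterocyte markers 4 were higher and 1 lower, with list means of 2.19 to 2.56 and 2.52 to 2.59. Of 10 smooth muscle markers 2 were lower, of 25 leukocyte markers 4 were lower and 1 higher, and of 11 fibroblast and 9 endothelial markers 0 were at that level. The part of these markers in the values of the signalling genes was not tested.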

How the data were processed

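The deposited files hold Agilent Feature Extraction output for each array, and per the file headers the mean signal and local background of each channel are unnormalized intensity. An alternative used a deposited table on a log10 scale, whose columns have a median of 2.90. Over 41174 features its values followed (r of at least 0.998) the log10 ratio of processed signals, Cy3 over Cy5, shifted by the mean log10 Cy5. The sources used here do not give the authors' test.

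Of 41006 probes, 15381 (37.5%) were named through a RefSeq table (GRCm38.p6), mostly by accession. With limma 3.58.1 in R 4.3.3, mean signals were background-corrected (normexp, offset 50), which pulls ratios of dim probes towards 0, and normalized by loess within arrays. Spots flagged as outliers were left out. Groups were compared by lmFit and eBayes, two-sided, with p-values adjusted by Benjamini-Hochberg over 37948 features, named genes and unnamed probes together. The planned filter on dim probes removed 0 probes. The number of arrays limits the precision, with a median SE of 0.077. The method was tested on simulated data.

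The genes and lists were chosen with earlier results of these data known. Values of every mouse are given, per arm, for the 3 genes of smallest p and those with the highest and lowest ratio, and of each further pathway list the 2 of smallest p are named. Other names were chosen after their values were seen. A replicate block could pair the mice by replicate number only. After each gene's group mean was taken off, same-numbered arrays of the groups had correlations of -0.088, -0.25 and 0.35. Those of unlike number ran from -0.39 to 0.45. With 3 arrays per group this centring ties the values to each other, so they cannot show whether the numbers mark pairs. Alternatives covered background, normalization, channel, filters, probes, model, the sex label, a replicate block and each array left out.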

Additional observations from a re-analysis of the deposited data

How the results depend on the processing

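Under all 21 alternatives 0 genes passed the test between groups, among the 24 and over all features, with 1498 to 3347 features at an unadjusted p under 0.05. With the replicate block 2 of the 24 were at that level, Akt1 (0.0105) and Eif4ebp1 (0.0249), while Foxo1 was at 0.0720 and Spry2 at 0.0589, and the smallest adjusted p among the 24 was 0.699. The count of 3 of the 24 was 0 in the Cy3 channel alone, 0 on the 4 arrays labelled male and 0 to 4 with 1 array left out: 0 without LOI(-) mouse 2, LOI(-) mouse 3 or LOI(+) mouse 2 and 1 without LOI(+) mouse 3. The genes called lower than the reference numbered 3 or 4 under the 18 alternatives run for that comparison, Eif4e joining at -1.23 without loess and Dusp6 at -1.08 with the mean of its probes. The sizes moved with the processing. The LOI(-) mean ran from -2.78 to -1.67 for Eif4ebp1, from -2.32 to -1.48 for Rheb and from -1.74 to -1.12 for Map2k1.

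The sign of some small differences turned. In the Cy3 channel alone Spry2 was at -0.22, Mapk3 at 0.10 and Dusp6 at 0.062. On the arrays labelled male Shc1 was at 0.030, Pdpk1 at 0.040, Gsk3b at 0.029 and Mapk3 at 0.091. Irs1 was at 0.0033 without background correction, 0.0018 with processed signals and 0.0019 in the deposited table. Other probes gave -0.011 for Pik3r3 and -0.030 for Nras. With 1 array left out, Irs1 ran from -0.070 to 0.025, Pik3cb from -0.033 to 0.10, Pdpk1 from -0.13 to 0.018, Gsk3b from -0.14 to 0.0052, Hras from -0.14 to 0.14, Map2k1 from -0.027 to 0.28 and Mapk3 from -0.11 to 0.067. The cause was not tested. Pik3ca, Pik3r2, Akt1, Foxo1, Foxo3, Tsc2, Rheb, Mtor, Eif4ebp1, Eif4e, Braf and Map2k2 kept their sign under all alternatives run. A kept sign was therefore not particular to the genes of small p. Signals near background limit what Irs1, Gsk3b, Tsc2 and Mtor can show.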
